A study of Mus musculus with 19 samples.

Results

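Adrenergic receptor signalling was followed in reperfused mouse hearts through 8 genes: the receptors Adrb1, Adra1a and Adra1b, the receptor kinase Grk5, the G protein subunit Gnao1, the adenylyl cyclases Adcy5 and Adcy6 and the phosphodiesterase Pde4d. They were chosen by symbol, as the probe sets that the array annotation assigns to that gene alone, and, had a gene had several, by the highest mean level. Of the 8 genes, 6 were measured, each by 1 probe set, among 22180 genes tested; Adrb1 and Adra1a were not analysed here. The hearts came from wild-type (WT) C57Bl6J mice at ZT0, the hour of lights on (n = 7), from WT mice of the same strain at ZT12, the hour of lights off (n = 7), and from mice lacking Rev-erb alpha, a clock repressor encoded by Nr1d1, at ZT12 (KO, n = 5). Every heart was removed and kept beating on a Langendorff apparatus, which feeds the coronary vessels from the aorta. It was left to settle for 20 min, deprived of flow for 20 min, reperfused for 20 min and frozen. All values therefore describe isolated hearts after ischemia, and no heart without ischemia and no KO heart at ZT0 is analysed here. The labels give no strain, allele or breeding history for the KO mice and no age for any group, so genotype and strain or colony cannot be told apart.

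In the heart, noradrenaline and adrenaline act on beta receptors, which activate adenylyl cyclase through the stimulatory G protein, and the cyclic AMP formed activates protein kinase A (PKA), which raises the rate and force of the beat. Alpha-1 receptors act through another G protein and phospholipase C. Inhibitory G proteins, of which the Gnao1 product is one, restrain the cyclase or act through their beta and gamma subunits, phosphodiesterases break cyclic AMP down, and receptor kinases such as that of Grk5 phosphorylate occupied receptors so that arrestins can bind and end the signal. An isolated heart keeps these components in its cells but is cut off from circulating hormones and from central nerve traffic.

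The 250 bases before the start of transcription are shown for Grk5 and Gnao1, the genes of this set with a called difference, because the stretches differ in base composition. They are given 5′ to 3′ on the gene's own strand from RefSeq on GRCm38.p6, with each CpG in capitals. The Grk5 stretch is chr19:60889499-60889748, on the plus strand, and the Gnao1 stretch is chr8:93810588-93810837, also on the plus strand.
Grk5: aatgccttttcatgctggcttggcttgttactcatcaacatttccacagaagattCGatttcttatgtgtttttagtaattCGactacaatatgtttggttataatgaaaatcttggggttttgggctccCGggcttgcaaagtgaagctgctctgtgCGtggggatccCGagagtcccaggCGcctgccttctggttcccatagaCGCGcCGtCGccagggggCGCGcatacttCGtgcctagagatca
Gnao1: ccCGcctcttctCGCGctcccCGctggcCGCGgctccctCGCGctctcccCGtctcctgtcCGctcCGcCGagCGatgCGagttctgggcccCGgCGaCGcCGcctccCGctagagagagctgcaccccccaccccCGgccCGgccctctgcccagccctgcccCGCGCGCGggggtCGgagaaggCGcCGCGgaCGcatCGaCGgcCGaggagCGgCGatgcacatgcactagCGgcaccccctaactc
The Grk5 stretch held 13 CpG and 49.6% G or C, and the Gnao1 stretch 36 CpG and 76.4%, against medians of 6 CpG and 52.4% over 32851 promoter windows. Of the 6 measured genes, 5 had an entry, with 6 windows in all because Adra1b has more than 1 start. Windows of 300 bases, from 250 before to 50 after the start, were searched on both strands for CACGTG (the E-box of clock activators, in 7.15% of all windows), TTATGTAA and TTATGCAA (D-boxes, 0.938% and 0.743%) and AGGTCA, a hexamer read by nuclear receptors (16.3%). They were also searched for TGACGTCA, the cyclic AMP response element (1.79%), and its shorter form TGACG, which lies within it (20.8%). These letters were present in 0 of the 6 windows.

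Array values were log2 intensities, with array medians between 3.25 and 3.32 and a median gene at 3.78, and correlations between arrays lay between 0.972 and 0.985. Cardiomyocyte markers were high in every heart, with list means of 11.13 to 11.24 over 10 of 10 genes. Markers of neurons, whose sympathetic fibres release noradrenaline in the heart from cell bodies that mostly lie outside it, were low: 9 of 11 were measured, 7 of these averaged under the median gene, and the defining genes Th and Dbh ran from 2.54 to 3.38 and from 2.11 to 2.60. Atrial muscle markers varied most. The mean of all 10 was 8.10 to 9.15 at ZT0, 6.68 to 9.03 in WT ZT12 hearts and 6.45 to 9.01 in KO hearts, and it was under 7 in 4 hearts, namely WT ZT12 replicate 5 and KO replicates 2, 4 and 5. A heart sample with less atrial muscle and one with less atrial RNA per cell cannot be told apart in such tissue extracts. Nr1d1 itself was at 6.30 to 6.51 in KO and 6.46 to 7.28 in WT ZT12 hearts and did not pass the test between them (adjusted p = 0.374); where its probes lie relative to the deletion is not given in the sources used here. Arntl, which Rev-erb alpha represses, was at 6.28 to 6.77 in KO hearts against 3.72 to 4.31 in WT ZT12 hearts (5.48-fold higher, adjusted p = 1.24e-12).

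Between WT and KO hearts at ZT12, Grk5 was the measured gene of the set that rose, 1.40-fold, with every KO heart above every WT ZT12 heart. Adra1b, Adcy5 and Adcy6 stood 1.20- to 1.22-fold higher in KO hearts without passing the test, and Gnao1 was far lower in 3 of 5 KO hearts. Against WT ZT0 hearts the KO mean of Gnao1 was 1.97-fold lower. The Grk5 difference passed the test in 7 of 12 fits without 1 heart, and this Gnao1 difference in 3 of 12. Between WT hearts at ZT12 and ZT0 none of the 6 passed, Grk5 coming nearest at 1.25-fold lower. A difference is called here at an adjusted p under 0.05 from limma, which borrows information on the spread across genes, with Benjamini-Hochberg adjustment over all genes tested. Called were 0 of 6 genes for ZT12 minus ZT0 (1.13% of all genes were called), 1 of 6 for KO minus WT at ZT12 (0.730%) and 1 of 6 for KO at ZT12 minus WT at ZT0 (1.34%). Counting by direction, 0.442% of all genes were higher in KO than in WT at ZT12, as Grk5 was, and 0.379% were lower in KO at ZT12 than in WT at ZT0, as Gnao1 was. At an unadjusted p under 0.05 the counts were 1, 5 and 4 of 6, beside 11.5%, 10.6% and 12.6% of all genes. The genes were picked with results of these hearts in view and the 3 comparisons share hearts, so neither the counts nor their directions are independent of each other.

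**Figure D1:**
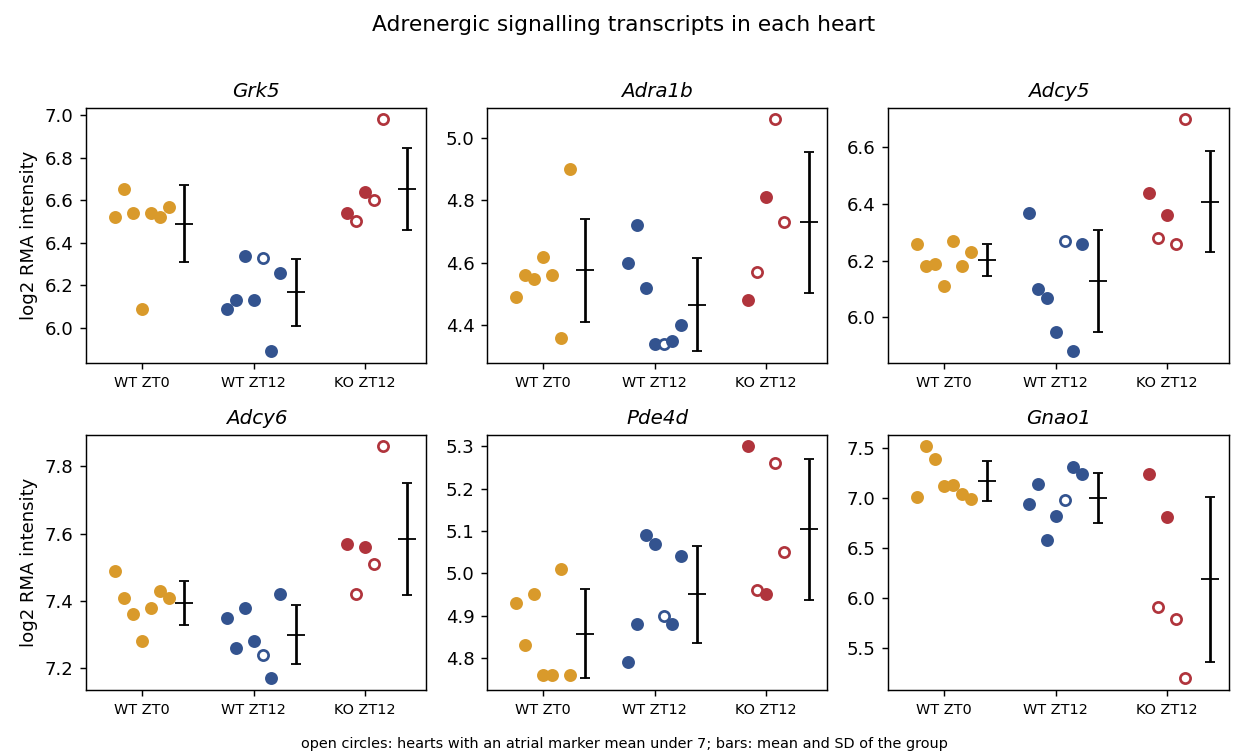
Log2 RMA intensity of the 6 measured genes in each heart, by group, with the group mean and SD as a bar; open circles are the 4 hearts with an atrial marker mean under 7. The 5 KO hearts lie above the 7 WT ZT12 hearts for Grk5, while 3 KO hearts, all open circles, hold Gnao1 values from 5.20 to 5.91.

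Grk5 encodes the G protein-coupled receptor kinase that, with Grk2, is the main one of heart muscle. Its level was 6.09 at the lowest, 6.54 at the median and 6.65 at the highest in WT ZT0 hearts, and 5.89, 6.13 and 6.34 in WT ZT12 hearts. In KO hearts it was 6.54, 6.50, 6.64, 6.60 and 6.98 for replicates 1 to 5. Of the WT ZT0 hearts, 6 of 7 lay between 6.52 and 6.65, a range that overlaps the KO range, and replicate 4, at 6.09, lay with the ZT12 hearts. Group means were 6.49 ± 0.18 (SD, n = 7) at ZT0, 6.17 ± 0.16 (SD, n = 7) in WT at ZT12 and 6.65 ± 0.19 (SD, n = 5) in KO. KO hearts exceeded WT ZT12 hearts by 0.49 on the log2 scale (SE 0.10, 95% interval 0.27 to 0.70, limma adjusted p = 0.0256). The KO hearts lay above the WT ZT12 hearts without overlap, as was so for 0.969% of all genes.

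With single hearts left out the Grk5 difference ran from 0.40 to 0.52, but its call did not hold throughout. It was lost without WT ZT12 replicate 2 or 4, and without KO replicate 3, 4 or 5, with limma adjusted p from 0.0507 to 0.0817. The 4 hearts low in atrial markers include 3 of the 5 KO hearts. Without them the difference was 0.45 with an adjusted p of 0.288, from 2 KO hearts (6.54 and 6.64) and 6 WT hearts, and with the atrial marker mean as a covariate it was 0.45 with an adjusted p of 0.0724. Grk5 in the low WT ZT12 heart was 6.33, near the top of its group. KO replicate 5, with the highest Grk5, also had the lowest macrophage and fibroblast marker means of all hearts (5.69 and 6.68), and without it the Grk5 difference was 0.40.

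Between the times of day, Grk5 stood 0.32 lower in WT hearts at ZT12 than at ZT0 (SE 0.093, 95% interval -0.52 to -0.13, limma adjusted p = 0.114). All 7 ZT12 hearts lay under the ZT0 mean, and 2 lay under the lowest ZT0 heart. Without WT ZT0 replicate 4 the difference was -0.39 and passed (adjusted p = 0.0229), and it also passed when the test was limited to genes above the median level (0.0494). KO hearts at ZT12 stood 0.16 above WT hearts at ZT0 (SE 0.10, 95% interval -0.05 to 0.38, adjusted p = 0.561). The order of the means from high to low was KO, WT ZT0, WT ZT12, and neither pair of neighbours passed the test.

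With predicted genes and small RNAs left out by symbol, Heatr6 (Pearson r = 0.89), Pdzrn3 (0.86) and Bri3bp (0.85) followed Grk5 most closely over the 19 hearts. All genes share the same arrays and groups. Taken as deviations from the group means, the correlations were 0.79, 0.74 and 0.66. Pdzrn3, which encodes a ubiquitin ligase with PDZ domains, was at 5.67 to 6.02 in WT ZT0 hearts, 5.42 to 5.56 in WT ZT12 hearts and 5.72 to 6.01 in KO hearts. As with Grk5, the WT ZT12 hearts were the low group. Pdzrn3 was picked for following Grk5 over these same hearts, so the shared order is no separate result.

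**Figure D2:**
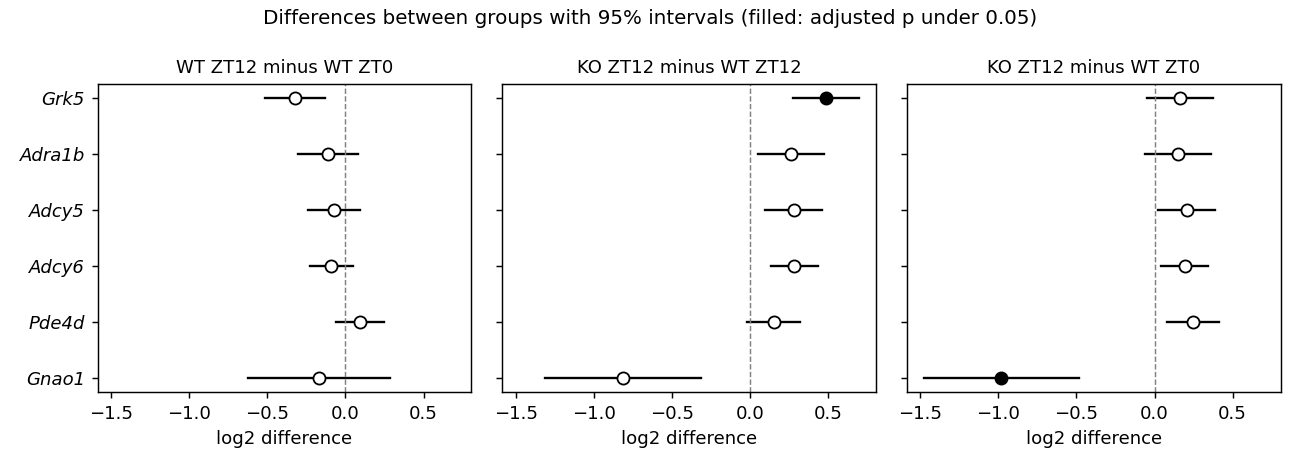
Log2 difference of group means for the 6 measured genes in the 3 comparisons, with 95% intervals from limma; filled points have an adjusted p under 0.05. Grk5 in KO minus WT at ZT12 (0.49) and Gnao1 in KO at ZT12 minus WT at ZT0 (-0.98) are the filled points.

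Adra1b encodes the alpha-1B adrenergic receptor, which couples to phospholipase C. Its level was 4.36, 4.56 and 4.90 (lowest, median, highest) in WT ZT0 hearts and 4.34, 4.40 and 4.72 in WT ZT12 hearts. KO hearts were at 4.48, 4.57, 4.81, 5.06 and 4.73. The groups overlapped, and 3 of 5 KO hearts lay above every WT ZT12 heart. The KO minus WT difference at ZT12 was 0.26 (SE 0.10, 95% interval 0.05 to 0.47, limma adjusted p = 0.333), ZT12 minus ZT0 in WT was -0.11 (interval -0.30 to 0.08, adjusted p = 0.708) and KO at ZT12 minus WT at ZT0 was 0.15 (interval -0.06 to 0.36, adjusted p = 0.596). The 1 other adrenergic receptor gene measured, Adra2c, averaged under the median gene in each group, at 2.41 to 3.91 over all hearts.

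Gnao1 encodes the alpha subunit of Go, an inhibitory-type G protein abundant in nerve cells and present in heart muscle, more so in atria. Its level ran from 6.99 to 7.52 in WT ZT0 hearts (median 7.12) and from 6.58 to 7.31 in WT ZT12 hearts (median 6.98). In KO hearts it was 7.24, 5.91, 6.81, 5.79 and 5.20 for replicates 1 to 5. The KO hearts thus fell into separate sets, with replicates 1 and 3 inside the WT range and replicates 2, 4 and 5 below every WT heart. The SD was 0.82 in KO hearts against 0.20 and 0.25 in the WT groups. KO hearts were 0.98 lower than WT ZT0 hearts (SE 0.24, 95% interval -1.48 to -0.48, limma adjusted p = 0.0426) and stood 0.81 below WT ZT12 hearts (SE 0.24, interval -1.31 to -0.32, adjusted p = 0.150). These SEs, intervals and p come from 1 spread shared by all groups and do not fully reflect the wider spread in KO hearts. WT hearts at ZT12 and ZT0 differed by -0.17 (SE 0.22, interval -0.62 to 0.29, adjusted p = 0.829).

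The 3 KO hearts low in Gnao1 were the 3 KO hearts with an atrial marker mean under 7. Their atrial means were 6.47, 6.71 and 6.45, against 9.01 and 8.47 in KO replicates 1 and 3. The WT ZT12 heart with an atrial mean of 6.68 held Gnao1 at 6.98, inside its group. Without these 4 hearts the Gnao1 difference was -0.14 against WT ZT0 (limma adjusted p = 0.890) and 0.02 against WT ZT12 (0.989), with 2 KO hearts left. With the atrial marker mean as a covariate the difference from WT ZT0 was -0.39 (adjusted p = 0.474). The call against WT ZT0 was also lost without WT ZT0 replicate 1, 2, 3, 4, 5 or 6 or KO replicate 2, 4 or 5 (adjusted p 0.0553 to 0.130), and with only the arrays compared (0.117). A trended, robust spread estimate (limma adjusted p = 0.0689) and array weights (0.0504) lost it as well. Without KO replicate 1 the difference from WT ZT12 was -1.08 and passed (adjusted p = 0.0145). Neuron markers, whose cells hold much Gnao1 protein, had list means of 2.97 to 3.10 in KO, 3.03 to 3.34 in WT ZT12 and 2.92 to 3.20 in WT ZT0 hearts, and Schwann cell markers 2.89 to 3.13, 2.89 to 3.14 and 2.91 to 3.27 over 3 of 5 genes. Other marker lists moved with Gnao1 as well. Adipocyte markers (7 of 8 measured) had means of 4.63, 4.76 and 4.42 in KO replicates 2, 4 and 5, against 6.80 and 5.70 in replicates 1 and 3, and ran from 4.34 to 6.61 in WT hearts. Smooth muscle markers (8 of 8) were at 5.95, 5.95 and 5.73 in the low KO hearts against 6.36 and 6.11, with WT hearts from 5.78 to 6.37, and fibroblast markers (7 of 7) at 7.29, 7.10 and 6.68 against 7.21 and 7.46, with WT hearts from 6.94 to 7.46. Taken as deviations from the group means over the 19 hearts, Gnao1 followed smooth muscle markers (r = 0.80), atrial (0.78), adipocyte (0.71) and fibroblast markers (0.64). These deviations keep the split among KO hearts, where the Gnao1 SD was 0.82 against 0.20 and 0.25 in the WT groups. The r values therefore rest largely on that split. With the adipocyte marker mean as a covariate the Gnao1 difference was -1.02 against WT ZT0 (adjusted p = 0.00314) and -0.91 against WT ZT12 (0.0172). The part of smooth muscle and fibroblast markers in the Gnao1 values was not tested.

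With the same symbols left out, Myl1 (Pearson r = 0.93), Map1b (0.90) and Tmem163 (0.89) were closest to Gnao1 over the 19 hearts. They encode a myosin light chain, a microtubule-associated protein and a membrane protein. As deviations from the group means the correlations were 0.88, 0.82 and 0.85. Myl1 ran from 5.04 to 6.41 in KO hearts and from 5.95 to 7.12 in WT hearts. The r over all hearts and the r of the deviations both rest in part on the low KO hearts, which form a cluster of their own. Subtracting a group mean does not remove that cluster.

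**Figure D3:**
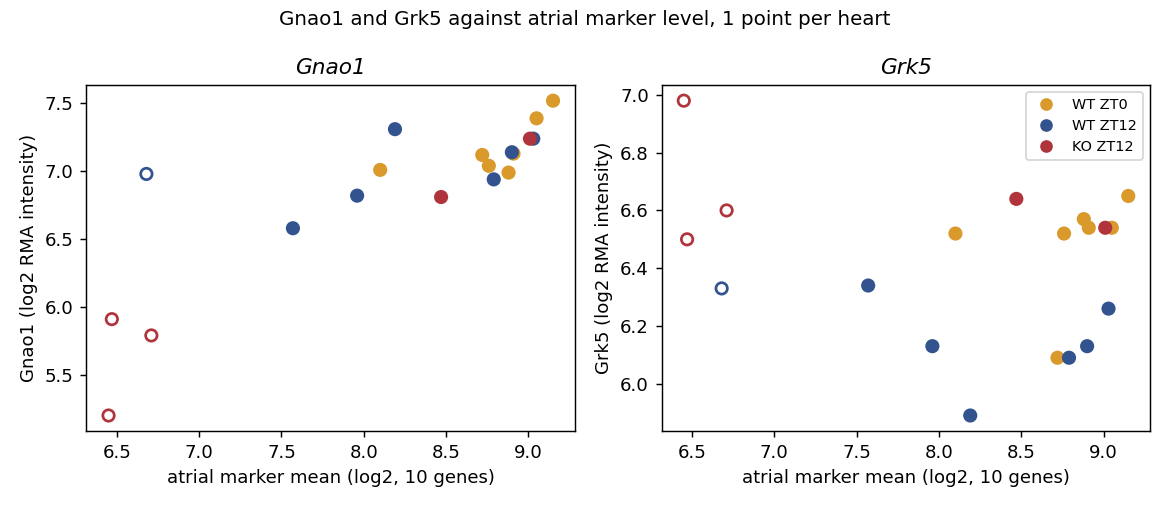
Level of Gnao1 and of Grk5 (log2) against the mean of the 10 atrial muscle markers in each of the 19 hearts, coloured by group. Gnao1 is at 5.20 to 5.91 in the 3 KO hearts with an atrial mean under 7, while the WT ZT12 heart in that range is at 6.98; Grk5 in the same 4 hearts is 6.50, 6.60, 6.98 and 6.33.

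Adcy5 and Adcy6 encode the adenylyl cyclases that make most of the cyclic AMP of heart muscle cells. Adcy6 was at 7.28, 7.41 and 7.49 (lowest, median, highest) in WT ZT0 hearts, at 7.17, 7.28 and 7.42 in WT ZT12 hearts, and at 7.57, 7.42, 7.56, 7.51 and 7.86 in KO hearts. Of the KO hearts, 4 of 5 lay above every WT heart of either time, and replicate 2 lay level with the highest WT ZT12 heart. The KO minus WT difference at ZT12 was 0.28 (SE 0.072, 95% interval 0.13 to 0.43) and did not pass (limma adjusted p = 0.0773). It passed when the test was limited to genes above the median level (0.0251) and with a trended, robust spread estimate (0.0213). KO at ZT12 minus WT at ZT0 was 0.19 (interval 0.04 to 0.34, adjusted p = 0.246), and ZT12 minus ZT0 in WT was -0.09 (interval -0.23 to 0.05, adjusted p = 0.643).

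Adcy5 was at 6.11, 6.19 and 6.27 in WT ZT0 hearts, at 5.88, 6.10 and 6.37 in WT ZT12 hearts, and at 6.44, 6.28, 6.36, 6.26 and 6.70 in KO hearts. The KO hearts overlapped the WT ZT12 hearts, with 2 of 5 above all of them, and KO replicate 5 was the highest heart for Grk5, Adcy5 and Adcy6 alike. Differences were 0.28 for KO minus WT at ZT12 (SE 0.088, 95% interval 0.10 to 0.46, limma adjusted p = 0.193), 0.21 for KO at ZT12 minus WT at ZT0 (adjusted p = 0.326) and -0.07 for ZT12 minus ZT0 (adjusted p = 0.791). Whether the cyclases moved unequally was asked from the within-heart difference Adcy5 minus Adcy6. It shifted by 0.02 between the times of day, by -0.0049 between the genotypes at ZT12 and by 0.01 between KO at ZT12 and WT at ZT0, where SDs within groups were 0.05 to 0.15 (exact two-sided permutation p = 0.741, 0.962 and 0.626, each 0.962 adjusted over 3 comparisons). No unequal change was detectable at this number of hearts. Over the 19 hearts, Adcy6 levels followed those of Adcy5 and of Grk5 (Pearson r = 0.84 for each, and 0.72 and 0.74 as deviations from group means).

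Pde4d encodes a phosphodiesterase that breaks down cyclic AMP near beta receptors and the ryanodine receptor. Its level was 4.76, 4.83 and 5.01 in WT ZT0 hearts, 4.79, 4.90 and 5.09 in WT ZT12 hearts, and 5.30, 4.96, 4.95, 5.26 and 5.05 in KO hearts. All 3 groups overlapped, and KO replicates 1 and 4 were the highest hearts. The differences were 0.15 for KO minus WT at ZT12 (SE 0.081, 95% interval -0.02 to 0.32, limma adjusted p = 0.534), 0.25 for KO at ZT12 minus WT at ZT0 (interval 0.08 to 0.41, adjusted p = 0.163) and 0.09 for ZT12 minus ZT0 (interval -0.06 to 0.25, adjusted p = 0.678).

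Around these genes, 12 lists of the pathway held 189 names, of which 168 were measured. Called were 6 genes for ZT12 minus ZT0 (4 higher, 2 lower; 3.57% of the measured genes, against 1.13% of all), 6 for KO minus WT at ZT12 (4 higher, 2 lower; 3.57% against 0.730%) and 12 for KO at ZT12 minus WT at ZT0 (8 higher, 4 lower; 7.14% against 1.34%). The median difference over the lists was -0.01, -0.01 and -0.02, beside -0.0035, -0.0030 and -0.0076 over all genes. Lists were chosen with results of these hearts known. Nothing particular to the pathway is read from these shares or from the counts of single lists below. Left out one at a time, single hearts lowered the counts to 3 (when WT ZT0 replicate 3 or 5 was left out, and also for WT ZT12 replicate 1 or 2), 3 (without KO replicate 4) and 6 (without WT ZT0 replicate 5 or KO replicate 5). Without the 4 hearts low in atrial markers, which leaves 2 KO hearts, they were 4 (Akap1, Plcb4, Per1 and Calcrl), 0 and 2 (Hcn2 and Per1). With all hearts and the atrial marker mean as a covariate they were 4 (the same genes), 5 (Gnb3, Pde2a, Pde3a, Maob and Chrm2) and 2 (Per1 and Chrm2).

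Phosphodiesterase genes held the list call with the smallest adjusted p between the genotypes at ZT12, with 2 of 18 higher, 0 lower and 16 not passing. Of all genes, 0.442% were called higher and 0.289% lower. Pde3a, whose product is inhibited by cyclic GMP and sets cyclic AMP near the sarcoplasmic reticulum, was at 7.67, 7.69, 7.33, 7.69 and 7.74 in KO hearts, against 6.73 to 7.09 in WT ZT12 hearts and 7.16 to 7.31 in WT ZT0 hearts. Pde3a in KO hearts lay above all WT hearts, as did 0.969% of all genes against WT ZT12 and 1.19% against WT ZT0. It was 1.61-fold higher in KO hearts than in WT at ZT12 (log2 difference 0.68, limma adjusted p = 3.49e-05), a call that held without any single heart but not without the 4 hearts low in atrial markers (adjusted p = 0.0548). It was 0.40 higher than in WT at ZT0 (adjusted p = 0.00722), a call lost with the atrial marker mean as a covariate (0.0607) and without those 4 hearts (0.337, difference 0.28). It was 0.28 lower in WT at ZT12 than at ZT0 (adjusted p = 0.0497), that call being lost without any compared heart other than WT ZT12 replicate 6. Pde2a, whose product is stimulated by cyclic GMP, was at 7.41 to 7.48 in KO and 6.90 to 7.22 in WT ZT12 hearts, 1.25-fold higher (adjusted p = 0.0182, or 0.0573 without KO replicate 2). Pde1c, of the calmodulin-stimulated family, was higher in KO hearts than in WT at ZT0 (log2 difference 0.34, adjusted p = 0.0338). That call was lost without 8 of the 12 hearts compared, among them WT ZT0 replicate 5 and KO replicate 5.

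Among 24 G protein subunit genes, 0 were called higher in any comparison, where 0.442% to 0.965% of all genes were. In KO hearts at ZT12, 1 fell against WT (0.289% of all genes did) and 2 fell against WT at ZT0 (0.379%). Besides Gnao1 this was Gnb3, a beta subunit gene, at 3.78, 3.65, 4.33, 3.62 and 3.58 in KO hearts against 4.33 to 4.95 in WT ZT12 hearts (1.70-fold lower, limma adjusted p = 0.00690) and 4.19 to 4.59 in WT ZT0 hearts (log2 difference -0.59, adjusted p = 0.0310). KO replicate 3 overlapped the WT hearts. Without the 4 hearts low in atrial markers the difference from WT at ZT12 was -0.45 (adjusted p = 0.492), while with the atrial marker mean as a covariate it was -0.75 (0.0198). The call against WT at ZT0 was lost without 7 of 12 hearts (adjusted p 0.0594 to 0.103) and with the covariate (0.161). Of 7 receptor kinase and arrestin genes, Grk5 was the 1 called, between the genotypes at ZT12 (0.730% of all genes were). Of 18 RGS genes, whose products speed the switching off of G proteins, 1 fell in KO hearts against WT at ZT0 (0.379% of all genes did). This was Rgs12, lower by 0.53 on the log2 scale (adjusted p = 0.0397). Its mean was 3.73 in KO hearts, under the median gene at 3.78, and 4.26 in WT ZT0 hearts. The Rgs12 call was lost without 9 of 12 hearts, among them KO replicates 2, 4 and 5. It was also lost with the atrial marker mean as a covariate (limma adjusted p = 0.334) and without the 4 hearts low in atrial markers (0.773). Of 9 cyclase genes, 0 were called in each comparison (1.13%, 0.730% and 1.34% of all genes were).

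Downstream of the cyclases, 22 genes of PKA, its inhibitors, Epac and anchoring proteins had 1 call, between the times of day (1.13% of all genes). Akap1, whose product anchors PKA at mitochondria, was 1.38-fold lower in WT hearts at ZT12 (7.47 to 7.86) than at ZT0 (8.02 to 8.22; adjusted p = 0.00133 by limma). These groups did not overlap, as was so in this direction for 0.374% of all genes. In KO hearts Akap1 was at 7.82 to 8.23, 0.35 above WT at ZT12 (adjusted p = 0.0508). Of 18 PKA substrates of contraction and their phosphatases, Ppp1r3a, a glycogen-targeting phosphatase subunit gene, was higher at ZT12 than at ZT0 in WT hearts (0.31, adjusted p = 0.0375, lost without 10 of 14 hearts) and higher in KO hearts than in WT at ZT0 (0.42, adjusted p = 0.00786). Hcn2, a pacemaker channel gene, was lower in KO hearts than in WT at ZT0 (-0.53, adjusted p = 0.0170, or 0.0604 without KO replicate 5).

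Of 12 genes of the phospholipase C and PKC branch, Plcb4, a phospholipase C gene, was higher in WT hearts at ZT12 than at ZT0 (log2 difference 0.39, limma adjusted p = 0.00211) and in KO hearts than in WT at ZT0 (0.32, adjusted p = 0.0241, lost without WT ZT0 replicate 4 or 5 or KO replicate 1, 3 or 4). Prkd1, which encodes protein kinase D1, was higher in KO hearts than in WT at ZT0 (0.47, adjusted p = 0.0120), a call lost with the atrial marker mean (0.136) or Bmp10 (0.147) as a covariate and without the 4 hearts low in atrial markers (0.360). Both genes that were higher in KO hearts than at ZT0 also stood higher in WT ZT12 hearts than in ZT0 hearts, Prkd1 ranging from 3.98 to 4.60 at ZT0, from 4.39 to 4.77 in WT at ZT12 and from 4.67 upwards in KO. Among 14 cyclic AMP and CREB responsive genes, Per1, also a clock gene, was higher at ZT12 in WT (0.99, adjusted p = 1.95e-05) and in KO hearts (1.11, adjusted p = 1.36e-05) than in WT at ZT0. Nr4a3, a nuclear receptor gene induced by cyclic AMP and named after its values were seen, was lower in KO hearts than in WT at ZT12 (-0.87, adjusted p = 0.0442, lost without 9 of 12 hearts).

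At ZT12, 1 of 9 genes of catecholamine synthesis, uptake and breakdown rose in KO hearts against WT (0.442% of all genes did). This was Maob, which encodes monoamine oxidase B of the outer mitochondrial membrane, at 7.98, 7.95, 7.90, 8.04 and 7.98 against 7.38 to 7.75 (1.36-fold, limma adjusted p = 0.0179, or 0.0509 without KO replicate 4). Of 15 other receptors linked to cyclic AMP, Chrm2, the muscarinic receptor through which the vagus slows the heart, was higher in KO hearts than in WT at ZT0 (0.40, adjusted p = 0.00779) and stood 0.32 above WT at ZT12 (adjusted p = 0.0507). Calcrl, the receptor gene for CGRP and adrenomedullin, was higher than in WT ZT0 hearts both in WT hearts at ZT12 (0.29, adjusted p = 0.0395) and in KO hearts (0.30, adjusted p = 0.0461), each call being lost without 9 of the hearts compared.

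**Figure D4:**
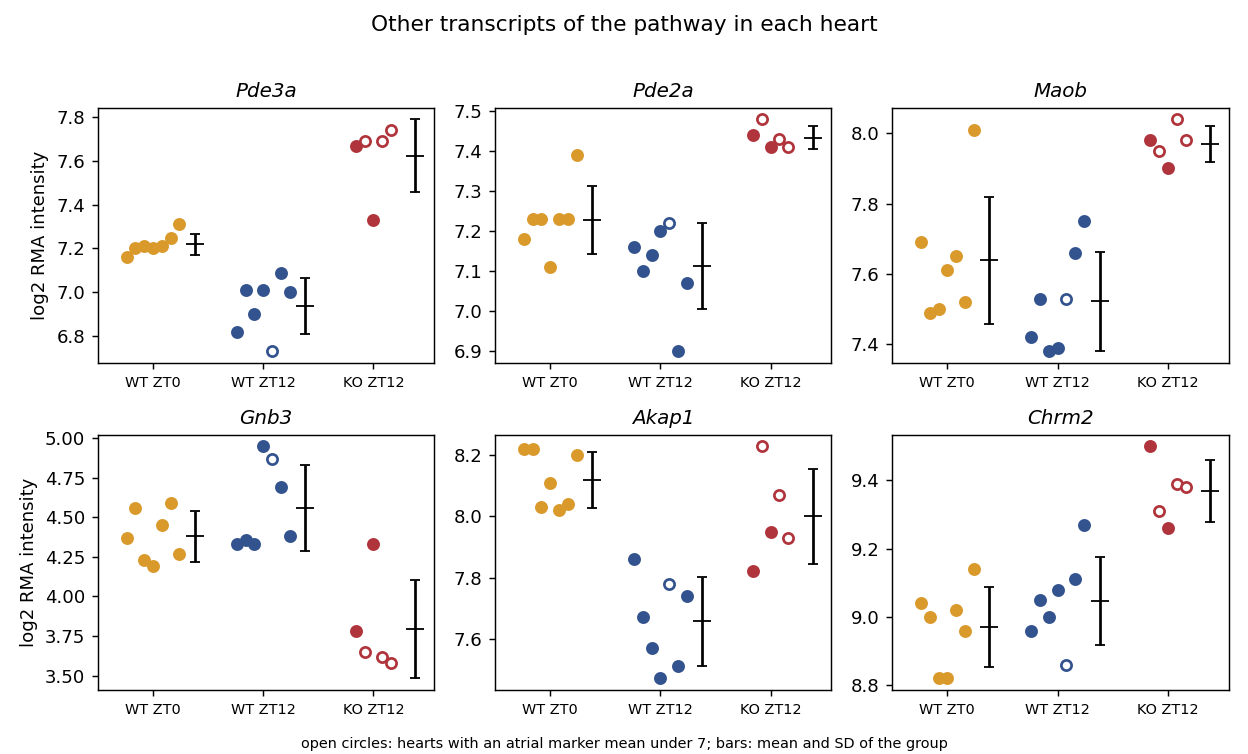
Log2 RMA intensity of 6 other pathway genes in each heart, by group, with mean and SD; open circles are the 4 hearts with an atrial marker mean under 7. Pde3a, Pde2a and Maob lie above all WT ZT12 hearts in all 5 KO hearts, and Akap1 is lower in all 7 WT ZT12 hearts than in all 7 WT ZT0 hearts. Of all genes, 0.969% and 0.374% lie apart in these ways.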

How the data were processed

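Values were the authors' deposited log2 probe set summaries, made with RMA (background correction, quantile normalization and probe summary) per the submitters' processing notes; the scale was read from the values, and the sources used here name no RMA version. RNA (300 ng per heart, per the labels' protocols) was hybridised to 19 arrays, 1 per heart. Labels call replicates biological. Probe sets listing 1 gene in the platform annotation were kept, the one with the highest mean where a gene had several (1082 genes). Differences were tested with limma 3.58.1 (R 4.3.3) in 1 model over all 19 arrays, two-sided, with Benjamini-Hochberg adjustment over 22180 genes; SE and 95% intervals come from that fit. The code was tested on simulated data. The members and gene lists were chosen with earlier results of these data known. Named were all members, up to 15 called list genes by smallest adjusted p (with the smallest p where a list had none called), and the 3 genes correlating best with each called member. For the last, predicted genes, clones and small RNAs were left out by symbol pattern, which also dropped other symbols beginning with Rn or Mir. RefSeq promoters (27025 genes) were matched by symbol. The number of arrays limits the precision.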

Additional observations from a re-analysis of the deposited data

Results flagged for a closer look

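Within groups of 5 or 7 hearts, 63 sets of values of the named genes were searched for a heart far from all others by Dixon's gap ratio at the 95% level, and 7 were found. Chance alone gives about 1 in 20. For Grk5, WT ZT0 replicate 4 was the lowest of its group at 6.09, with the next heart at 6.52, and KO replicate 5 was the highest at 6.98, with the next at 6.64. Pde3a was lowest in KO replicate 3 (7.33, next 7.67), and Gnb3 was highest in the same heart (4.33, next 3.78). Plcb4 was lowest in WT ZT12 replicate 1 (7.61, next 7.78). Hcn2 was highest in WT ZT12 replicate 5 (5.20, next 4.93), a heart with a low atrial marker mean. Maob was highest in WT ZT0 replicate 7 (8.01, next 7.69), which lay among the KO hearts.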

How the results depend on the processing

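For the 6 measured genes, 12 other settings gave 216 differences, of which 197 kept direction and side of the threshold, and leaving out 1 heart gave 228, of which 212 did and 0 changed sign. Most of these were differences that stayed uncalled. The Grk5 call between the genotypes at ZT12 held in 7 of 12 settings and in 7 of 12 fits without 1 heart. The Gnao1 call against WT at ZT0 held in 5 of 12 settings and in 3 of 12 such fits. Added after seeing the data were the settings without the 4 hearts low in atrial markers, with Bmp10, an atrial gene, and with adipocyte markers as covariates, and every setting for single pathway genes that are not members; the atrial marker mean as covariate was planned for the members and the counts. Gnao1 changed sign for ZT12 minus ZT0 with the atrial mean (0.11) or Bmp10 (0.038) as covariate, and for KO minus WT at ZT12 without the 4 hearts low in atrial markers (0.020); the cause was not tested. It passed for KO minus WT at ZT12 with adipocyte markers as covariate (limma adjusted p = 0.0172). The Grk5 call did not hold when only the hearts compared were fitted (limma adjusted p = 0.0604) and with Bmp10 as covariate (0.0521).

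Counts of called genes changed as follows. For ZT12 minus ZT0 (250), limiting the test to genes above the median level gave 431, and leaving out 1 heart 185 to 251. For KO minus WT at ZT12 (162), counts were 283 above the median level, 72 with only the arrays compared (fewer samples), 270 with a trended, robust spread, 19 without the 4 hearts, and 94 to 161 without 1 heart. For KO at ZT12 minus WT at ZT0 (298), they were 527, 187 with only the arrays compared, 163 with the atrial mean and 134 with Bmp10 as covariate, 84 without the 4 hearts, and 171 to 311 without 1 heart. Replicate numbers do not pair the hearts: deviations of same-numbered hearts correlated at -0.07 to 0.07, with 1 of 7, 0 of 5 and 0 of 5 pairs closest to their own number. With the number as a replicate block the counts were 88 for KO minus WT at ZT12 and 182 for KO at ZT12 minus WT at ZT0, and Grk5 and Gnao1 were at adjusted p of 0.0518 and 0.108. Adcy5 minus Adcy6 shifted by 0.0022 between the genotypes at ZT12 when arrays were quantile normalized again, and without 1 heart by -0.032 to 0.030 there and by -0.016 to 0.046 between the times of day. The comparison of Adra1a with Adra1b was not run. The median SE over all genes, 0.096 for the WT comparison and 0.11 for those with KO, limits the size of change that 5 to 7 hearts a group can show.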

Other observations

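Pde2a in KO hearts, at 7.41 to 7.48, lay above all 14 WT hearts (6.90 to 7.39), yet it did not pass against WT at ZT0 (limma adjusted p = 0.146). KO hearts lay above WT ZT0 hearts without overlap in 1.19% of all genes.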
